A study of Danio rerio with 6 samples.

Results

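The genes described here encode the proteins of the cytosolic ribosome, measured as messenger RNA in the regenerating tail fin of zebrafish (Danio rerio). Entries of the deposited count table were taken by name. It took symbols that start with rpl or rps followed by a digit, the stalk genes rplp0, rplp1 and rplp2 with rplp2l, and rpsa, each with all its numbered entries, and left out the rps6k kinase genes. It found 107 of 53709 entries. Of these, 62 entries under 48 symbols were assigned by name to the large subunit and 44 entries under 36 symbols to the small subunit. Whether each product, such as that of rpl7l1, is part of the finished ribosome was not examined. The last one, rps19bp1, encodes a protein that binds ribosomal protein S19 and is part of neither subunit. All 107 entries passed the filter on low counts, which left 25962 entries to be tested.

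A ribosome consists of a large subunit, which joins amino acids into protein, and a small subunit, which reads the messenger RNA. Each subunit holds ribosomal RNA and a set of proteins, most of them needed in equal numbers. Cells make these proteins together, largely by controlling the translation of their messengers through mTORC1, a growth-sensing kinase complex. A blastema is the mass of dividing cells from which an amputated fin regrows, and dividing cells must make ribosomes.

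Male fish were sampled 4 days after amputation of the tail fin. The ZnO group was kept in water with 2 mg/L of Pro-ZnO, nanoparticles of zinc oxide prepared with extract of propolis, and the control group in distilled water. Each group had 3 libraries of poly(A) RNA from blastema. The labels give 5 fish per group in triplicate and neither strain nor age, and they do not tie fish to libraries, so a p-value here reflects only the scatter among these libraries, which may be technical. With no group given only propolis or only zinc ions, the parts of extract, ions and particles cannot be told apart. In tissue RNA, fewer cells of a type and less RNA per cell cannot be told apart either.

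The labels state an interest in the immune response of the blastema. The libraries held 26624174 to 31712994 counts, and 1 count was worth 0.0315 to 0.0376 CPM (counts per 1000000 counts of the library) before scaling. The CPM of genes given below are further divided by a factor per library of 0.981 to 1.02 (TMM, which aligns the bulk of the genes). Markers of blastema and fin mesenchyme were present under 13 of 14 symbols (tnc had no entry), with a summed level of 5986 to 8960 CPM in controls and 7859 to 9226 in ZnO. Epidermal markers, 10 of 10 symbols, summed to 44979 to 61728 and 59552 to 75756 CPM, so the samples held much epidermis. All 16 entries of 12 leukocyte markers had negative log2 fold changes, against 48.0% of all tested entries. Of the 16, 2 passed an edgeR adjusted p of 0.05, where 0.331% of all tested entries passed as lower. Leukocyte markers summed to 3486 to 4374 CPM in controls and 2296 to 3057 in ZnO. Erythrocyte markers, 7 of 8 symbols tested, summed to 24.4 to 139 and 136 to 372 CPM. The library named ZnO 2 stood apart in the ribosomal protein genes, so the main group values are given below with and without it.

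Ribosomal protein messengers took about the same share of each library except ZnO 2. Large subunit entries held 3.70%, 3.89% and 3.98% of all counts in the controls and 3.77%, 4.78% and 3.80% in the ZnO libraries. Small subunit entries held 2.41%, 2.51% and 2.58% in the controls and 2.43%, 3.17% and 2.46% in ZnO. In both subunits ZnO 1 and ZnO 3 lay inside the control range, and ZnO 2 lay above all other libraries. The sum of both subunits averaged 6.36% ± 0.225 in controls and 6.80% ± 0.993 in ZnO (SD over 3 libraries each). The share in ZnO 2 was 7.95%, with an exact 95% binomial (Clopper-Pearson) interval of 7.94% to 7.96%, and in control 3, the highest of the other libraries, 6.56% (6.55% to 6.57%). Such intervals leave out variation between libraries. Where reads are copies made by PCR, and so not independent molecules, the intervals are too narrow even for counting error.

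The balance between the subunits was nearly the same in all libraries. Large subunit entries had 1.53, 1.55 and 1.54 counts per small subunit count in the controls and 1.55, 1.51 and 1.54 in ZnO. ZnO 2 had the lowest ratio, in the library with the highest share of both subunits.

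**Figure D1:**
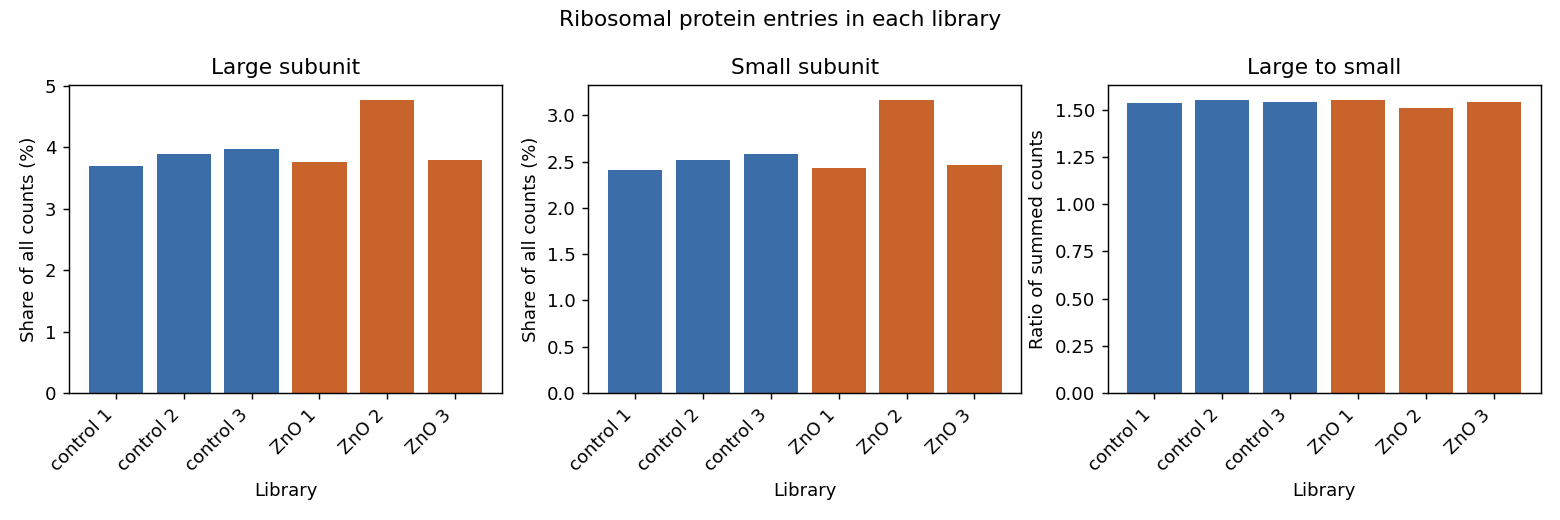
Share of all counts in large subunit entries and in small subunit entries (%), and the ratio of their summed counts, for each of the 6 libraries (blue control, orange ZnO). ZnO 2 has the highest shares, 4.78% and 3.17%, while its ratio of 1.51 is close to that of the other libraries, 1.53 to 1.55.

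The higher level in ZnO 2 was spread over nearly all entries of both subunits. Relative to each entry's mean over the controls, the median large subunit entry in ZnO 2 was higher by 0.35 on the log2 CPM scale and the median small subunit entry by 0.37. In ZnO 1 the same medians were -0.05 and -0.06, and in ZnO 3 -0.06 and -0.06. Among the controls they ran from -0.05 to 0.03 in both subunits. ZnO 2 was the highest of the 6 libraries at 103 of 107 entries, while it was the highest at 23.0% of all tested entries. ZnO 2 was chosen here because it was high, so these counts are a description and not a test.

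Apart from ZnO 2, the entries varied little between libraries of a group. The median SD of log2 CPM over the 3 controls was 0.06 for the 107 entries and 0.21 for all tested entries, many of which had far fewer counts. Over the 3 ZnO libraries it was 0.24 and 0.23, and over ZnO 1 and ZnO 3 alone 0.03 and 0.17.

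**Figure D2:**
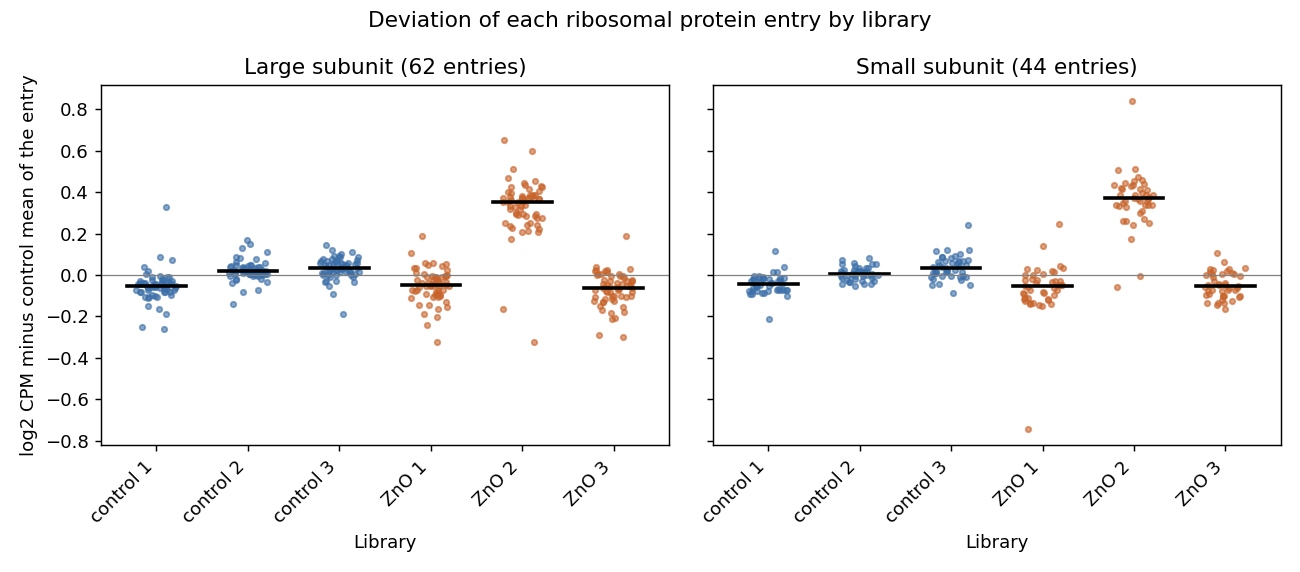
log2 CPM of each ribosomal protein entry minus its mean over the 3 controls, by library, for 62 large and 44 small subunit entries (points), with the median as a black bar. In ZnO 2 the medians are 0.35 and 0.37, and in the other 5 libraries they lie between -0.06 and 0.03.

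Several marker sums were also extreme in ZnO 2. Its epidermal sum, 75756 CPM, was the highest of the 6 libraries, as were its erythrocyte sum, 372 CPM, and the sum of 5 pigment cell markers, 123 CPM. Its osteoblast sum, 8501 CPM, and its nerve and glia sum, 21.6 CPM, were also the highest, while its blastema, leukocyte and endothelial sums lay inside the range of the other libraries. A sum is carried by its most abundant entries. By the median log2 deviation from the control mean, ZnO 2 was also highest for erythrocyte, pigment and osteoblast markers. It was not highest for epidermis (0.17, with 0.18 in ZnO 1) or for nerve and glia (0.03, with 0.18 in control 2). ZnO 3 followed in the erythrocyte and pigment sums with 326 and 87.3 CPM, and its ribosomal protein medians were not raised. The skeletal muscle sum was lowest in ZnO 2, at 1.92 CPM against 4.72 to 6.47 in the others, with 2 of 6 symbols tested and pvalb1 at 0. ZnO 2 also had the fewest counts. The part of these differences in the ribosomal protein levels was not tested.

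No ribosomal protein entry passed the test between ZnO and control. In the quasi-likelihood test of edgeR, 0 of 107 passed a Benjamini-Hochberg adjusted p of 0.05, where 0.428% of all tested entries passed (111 of 25962, and 12 to 369 entries when 1 library was left out). At an unadjusted edgeR p under 0.05 the count was also 0, against 15.9% of all tested entries. DESeq2 and limma-voom each called 0 of 107, where they called 4.62% and 0.212% of all tested entries. With either tool 0 of 107 had an unadjusted p under 0.05, against 15.4% (DESeq2) and 16.3% (limma-voom) of all tested entries. The smallest adjusted p in the edgeR test was 0.331, for rpl7l1. Groups did not overlap at 3 of 107 entries (rpl32, rpl32_1 and rpl7l1), against 22.5% of all entries. Of these, 1 was higher in ZnO (11.3% of all) and 2 lower (11.2% of all).

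For the fold change, ZnO minus control on the log2 scale, the median was 0.09 in the large subunit and 0.10 in the small subunit, beside 0.01 over all tested entries. It was positive at 57 of 62 large and 44 of 44 small subunit entries, against 52.0% of all tested entries. These directions rested on ZnO 2. Without that library the medians were -0.06 and -0.07, and 10 of 107 entries were positive, against 49.1% of all entries then tested. Again 0 of 107 passed, where 0.105% of all entries passed. At an unadjusted edgeR p under 0.05 there was 1, rpl30, against 13.9% of all entries.

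The intervals show, for each entry taken alone, the range of change that the scatter among these libraries allows. As fish are not tied to libraries, the intervals may not cover variation between fish. The 95% interval of the log2 fold change lay within a 1.5-fold change in either direction at 102 of 107 entries. The other 5 were rpl32, rpl32_2, rplp2, rpl7l1 and rps8b, and the interval of rps8b alone reached past 2-fold, from -0.76 to 1.15. The intervals use a spread per entry that edgeR draws toward a trend shared by all tested entries. ZnO 2 adds to that spread at most members.

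**Figure D3:**
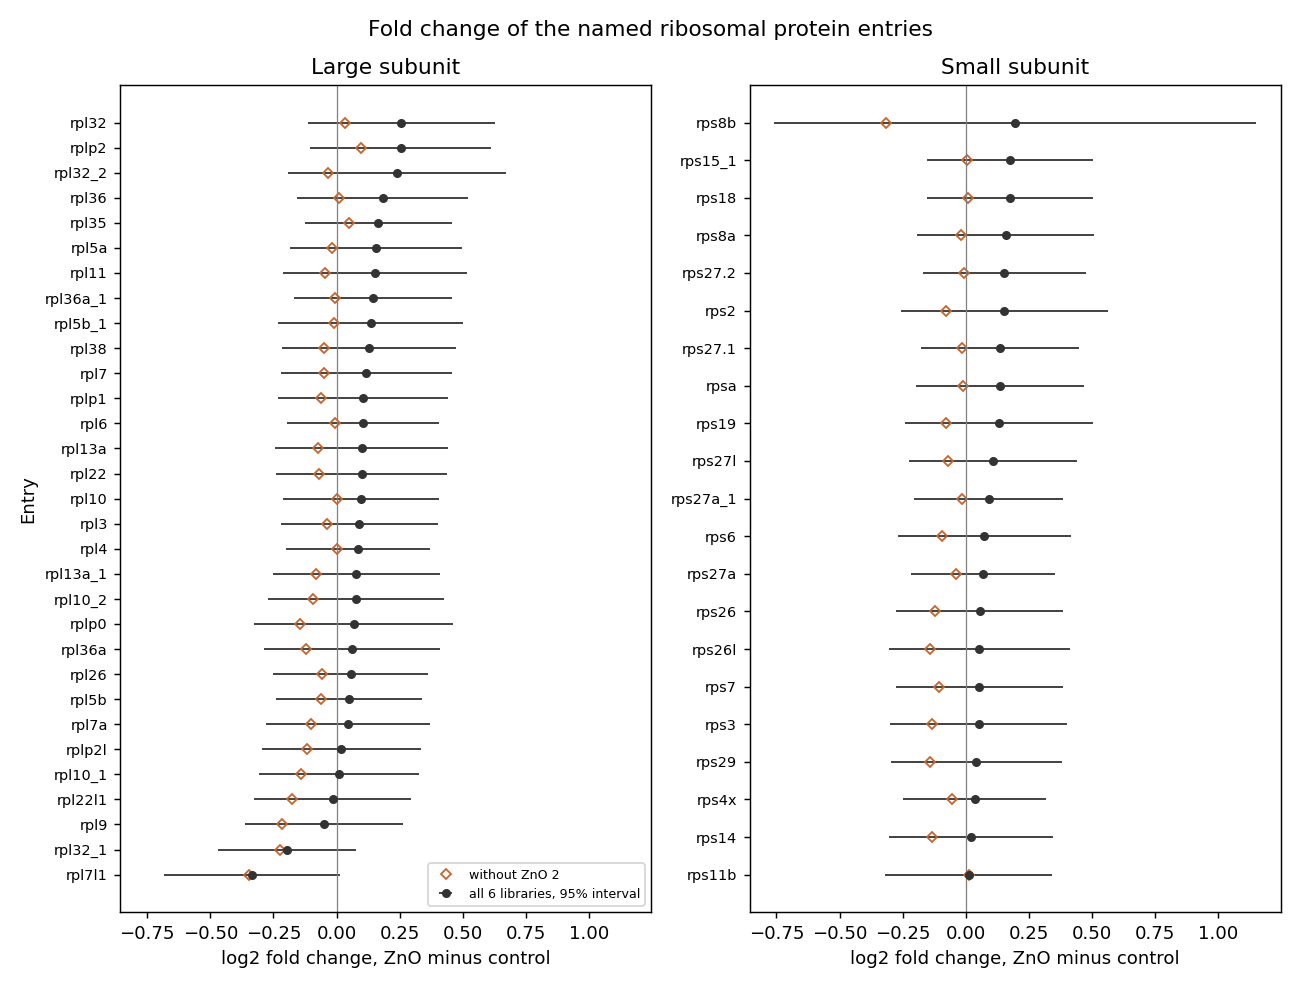
log2 fold change of 52 named entries, ZnO minus control, with 95% intervals from edgeR (black), and the same without ZnO 2 (orange diamonds). All intervals include 0, and most diamonds lie to the left of their black point.

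The stalk of the large subunit binds the elongation factors, and its base is the product of rplp0. This gene stood at 2106, 2235 and 2355 CPM in the control libraries against 2073, 2942 and 2002 in the ZnO libraries. ZnO 1 and ZnO 3 were below all 3 controls and ZnO 2 above them (log2 fold change 0.07 ± 0.17, SE, edgeR adjusted p = 0.889, and -0.15 without ZnO 2). rplp1, which encodes one of the acidic stalk proteins, was at 1093, 1121 and 1123 CPM in the control libraries against 1082, 1440 and 1070 in the ZnO libraries, the same order.

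The genes of the other acidic stalk protein, rplp2 and rplp2l, did not keep a fixed proportion. rplp2 was at 310, 365 and 390 CPM in the control libraries against 364, 503 and 402 in the ZnO libraries, with overlapping groups (log2 fold change 0.25 ± 0.16, SE, edgeR adjusted p = 0.476). It was the large subunit entry with the highest fold change without ZnO 2, 0.10. rplp2l was at 758, 777 and 838 CPM in the control libraries against 761, 930 and 713 in the ZnO libraries (log2 fold change 0.02 ± 0.14, adjusted p = 0.965, and -0.12 without ZnO 2). Per 100 counts of rplp2, rplp2l had 244, 213 and 215 counts in controls and 209, 185 and 177 in ZnO, so all ZnO libraries lay below all controls. This ratio was not tested and was picked from 9 pairs of related genes after their values were seen.

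Ribosomal proteins L5 and L11 bind 5S ribosomal RNA, and in mammals, when ribosome assembly stalls, they bind the p53 inhibitor MDM2. rpl11 was at 704, 713 and 750 CPM in the control libraries against 710, 998 and 701 in the ZnO libraries. Only ZnO 2 left the control range upward (log2 fold change 0.15 ± 0.16, SE, edgeR adjusted p = 0.696, and -0.05 without ZnO 2). rpl5a, one of the L5 genes, was at 773, 796 and 813 CPM in the control libraries against 789, 1072 and 792 in the ZnO libraries, with ZnO 1 and ZnO 3 inside the control range. rpl5b had entries at 344 ± 20.2 and 455 ± 65.5 CPM on average in controls, with 356 ± 41.9 and 499 ± 77.1 in ZnO (SD, n = 3).

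L22 and its relative L22-like 1, which have opposing roles in blood formation in zebrafish, were both measured. rpl22 was at 312, 354 and 342 CPM in the control libraries against 313, 432 and 334 in the ZnO libraries. rpl22l1 was at 168, 172 and 173 CPM in the control libraries against 154, 202 and 151 in the ZnO libraries, so ZnO 1 and ZnO 3 were below all controls and ZnO 2 above them (log2 fold change -0.02 ± 0.14, SE, edgeR adjusted p = 0.970, and -0.18 without ZnO 2). Per 100 counts of rpl22 there were 51.0 ± 2.69 counts of rpl22l1 in controls and 47.1 ± 2.20 in ZnO (SD, n = 3), with overlapping ranges.

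Among other large subunit genes, rpl38, which in mice is needed for translation of Hox messengers, was at 280, 270 and 250 CPM in the control libraries against 273, 353 and 248 in the ZnO libraries. rpl13a, whose human product leaves the ribosome to silence inflammatory messengers in monocytes, was at 664, 714 and 735 CPM in the control libraries against 667, 911 and 686 in the ZnO libraries. In both, ZnO 2 was above all controls, ZnO 1 was inside their range, and ZnO 3 was inside it for rpl13a and just below it for rpl38. The other entry of rpl13a, rpl13a_1, had ZnO 1 at 156 CPM, below its controls (162 to 185). Summed over both entries, ZnO 1 was at 822 CPM, just below the controls (827 to 920). rpl10, which joins the large subunit late in its maturation, had 3 entries with log2 fold changes of 0.10, 0.01 and 0.08. The structural genes rpl3, rpl4, rpl6, rpl7a and rpl26, which with rplp0 had the most CPM per entry, had log2 fold changes between 0.04 and 0.10. CPM is not scaled to transcript length, so levels of different genes are not compared.

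In the small subunit, rps6, whose product is the classic substrate of the S6 kinases below mTORC1, was at 1442, 1502 and 1575 CPM in the control libraries against 1443, 1905 and 1409 in the ZnO libraries. ZnO 1 matched the lowest control and ZnO 3 was below it (log2 fold change 0.07 ± 0.15, SE, edgeR adjusted p = 0.859, and -0.09 without ZnO 2). rpsa, a protein of the small subunit also known as the laminin receptor precursor, was at 1942, 2108 and 2171 CPM in the control libraries against 2074, 2675 and 2085 in the ZnO libraries. rps2, a protein near the messenger entry site, was at 2244, 2265 and 2456 CPM in the control libraries against 2234, 3304 and 2205 in the ZnO libraries. In ZnO 2 it stood 0.54 on the log2 scale above the mean of the other 5 libraries.

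Several small subunit genes are known from human disease. rps19, the gene most often mutated in Diamond-Blackfan anaemia, was at 465, 492 and 503 CPM in the control libraries against 463, 670 and 468 in the ZnO libraries. rps14, lost in the 5q deletion syndrome of human bone marrow, was at 739, 725 and 778 CPM in the control libraries against 674, 901 and 701 in the ZnO libraries. Of these, rps14 had ZnO 1 and ZnO 3 below all controls, and its log2 fold change was 0.02 ± 0.14 (SE, edgeR adjusted p = 0.960, and -0.13 without ZnO 2). rps7, rps26, rps26l and rps29 had log2 fold changes between 0.04 and 0.06.

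None of the S27 genes passed the test, nor did the ubiquitin fusion gene rps27a. rps27.1 and rps27.2 were at 433 ± 10.1 and 330 ± 9.71 CPM on average in controls, with 476 ± 75.7 and 367 ± 62.1 in ZnO (SD, n = 3). rps27l, whose human counterpart is a p53 target, was at 25.5, 25.4 and 24.9 CPM in the control libraries against 23.3, 33.1 and 25.3 in the ZnO libraries (log2 fold change 0.11 ± 0.15, SE, edgeR adjusted p = 0.772, and -0.07 without ZnO 2). The 2 entries of rps27a, which encodes ubiquitin fused to a ribosomal protein, had log2 fold changes of 0.07 and 0.09.

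Within each subunit the named entries of smallest p were rplp2, rpl32_1 and rpl7l1 in the large and rps15_1, rps18 and rps27.2 in the small. rps18, which encodes a protein of the head of the small subunit, was at 608, 618 and 611 CPM in the control libraries against 627, 828 and 618 in the ZnO libraries (log2 fold change 0.17 ± 0.14, SE, edgeR adjusted p = 0.604). rps15_1 was at 89.0, 91.1 and 102 CPM in the control libraries against 95.2, 128 and 95.8 in the ZnO libraries. Without ZnO 2 both had a log2 fold change of 0.01.

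How far ZnO 2 stood above the rest differed between entries. Its log2 CPM exceeded the mean of the other 5 libraries by 0.38 at the median of the 107 entries, and 101 of 107 were higher by at least 0.2, against 31.4% of all tested entries. Among entries above 100 CPM, rpl32_1 was lower in ZnO 2 than that mean (-0.08), and the excess was small at rps4x (0.19), rpl21 (0.21) and rpl4 (0.22), and large at rpl32 (0.58) and rpl32_2 (0.66), while the sparse entry rps8b had 0.97. These examples were chosen after their values were seen. rps8b, the minor S8 gene, rested on 19 to 55 counts per library, while rps8a, the major one, had 25548 to 32219 and an excess of 0.44.

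The 4 entries that were not highest in ZnO 2 were rpl7l1, rpl32_1, rps11b and rps11b_1. rpl7l1, a relative of rpl7, was at 35.5, 25.7 and 24.8 CPM in the control libraries against 22.6, 22.6 and 22.9 in the ZnO libraries. All ZnO libraries were below all controls, and control 1 was well above the other controls (log2 fold change -0.34 ± 0.15, SE, edgeR unadjusted p = 0.0573, adjusted p = 0.331). Leaving out control 1 brought the log2 fold change to -0.15. Per 100 counts of rpl7 there were 3.31, 2.22 and 2.20 counts of rpl7l1 in controls and 2.07, 1.55 and 2.10 in ZnO. rps11b was at 17.7, 20.1 and 24.2 CPM in the control libraries against 22.6, 20.4 and 19.5 in the ZnO libraries, with overlapping groups. rps19bp1 was at 17.1, 16.0 and 16.1 CPM in the control libraries against 15.9, 17.4 and 15.6 in the ZnO libraries (log2 fold change -0.01 ± 0.12, SE).

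For 18 of the 85 symbols the table held several entries, 3 entries for 4 of them and 2 for the others. How reads that match several places were assigned is not given in the sources used here, so the split between such entries is less certain than their sum. For most symbols the split was steady. It moved most for rpl32, a large subunit protein gene. Its entry rpl32_1 held 33.6%, 38.2% and 35.3% of the symbol's counts in controls and 31.7%, 24.2% and 33.1% in ZnO. ZnO 2 was the lowest, with an exact 95% binomial interval of 23.6% to 24.7%, and the ZnO libraries lay below all controls. The intervals of control 1 (33.0% to 34.3%) and ZnO 3 (32.5% to 33.8%) overlapped. The entry rpl32_2 held 43.1%, 40.4% and 42.8% in controls and 43.9%, 50.3% and 43.1% in ZnO.

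Summed over its 3 entries, rpl32 was like the other members. The sum stood at 677, 742 and 730 CPM in the control libraries against 679, 941 and 685 in the ZnO libraries (log2 fold change 0.10 ± 0.15, SE, edgeR adjusted p = 0.790). Taken alone, rpl32_1 had -0.20 ± 0.12 (adjusted p = 0.468) and rpl32 had 0.26 ± 0.16 (adjusted p = 0.489), in opposite directions and both with groups that did not overlap.

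The rpl5b split was set apart by a control. The entry rpl5b held 49.1%, 39.6% and 41.2% of the symbol's counts in controls and 40.7%, 40.7% and 43.8% in ZnO, so control 1 was highest. For rpl9 the share was small and the groups did not overlap. The entry rpl9 held 12.5%, 12.5% and 11.6% in controls and 11.4%, 10.8% and 10.8% in ZnO, and intervals of control 3 (11.2% to 12.1%) and ZnO 1 (10.9% to 11.8%) overlapped. These 3 symbols were chosen after their values were seen.

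**Figure D4:**
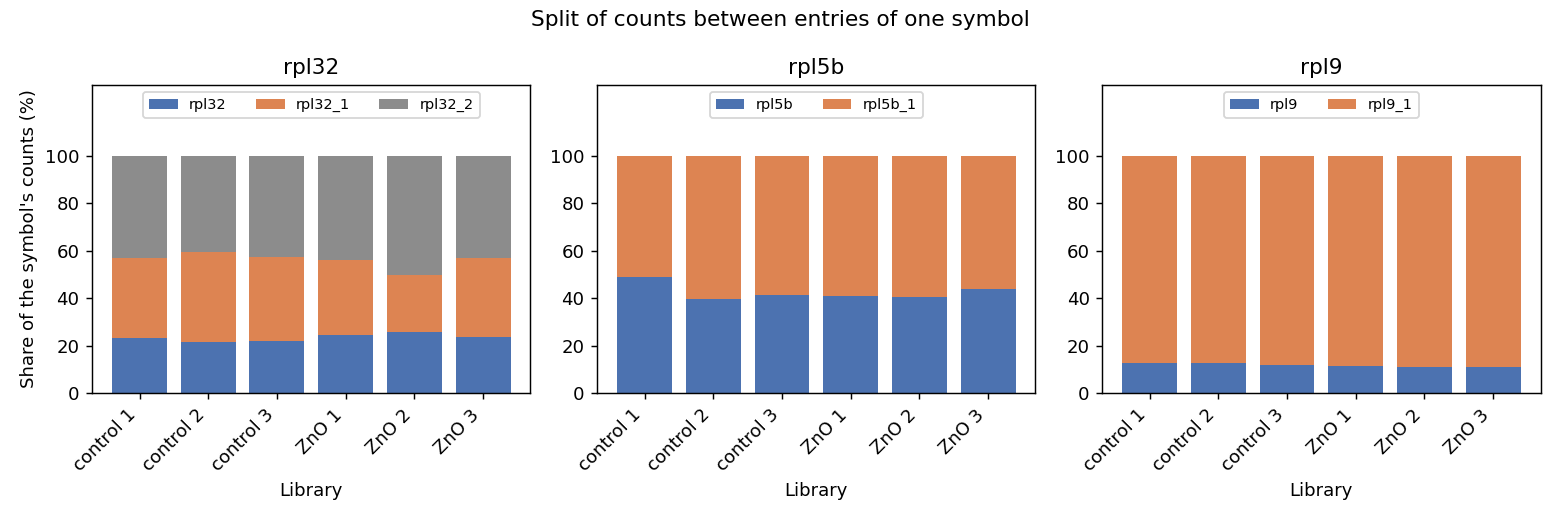
Share of a symbol's counts (%) held by each of its entries in each library, for rpl32, rpl5b and rpl9. The rpl32_1 share drops to 24.2% in ZnO 2, and the rpl5b share is highest in control 1, at 49.1%.

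Ribosomal proteins whose gene names fall outside the rule were looked at beside the members. faua, which encodes a ubiquitin-like protein fused to a small subunit protein, was at 518, 535 and 555 CPM in the control libraries against 508, 690 and 515 in the ZnO libraries. ZnO 1 and ZnO 3 were below all controls and ZnO 2 above them. Of the 6 entries of this list, with rack1, 0 passed by edgeR, DESeq2 or limma-voom and 0 had an unadjusted edgeR p under 0.05. Its other entries faub_1 and faub_2 were under 10 CPM, with log2 fold changes of 0.25 and -0.44. The list median was 0.09, and -0.12 without ZnO 2.

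The entries whose log2 CPM was most like the mean of a subunit over the 6 libraries came partly from translation. Among 11621 other entries with a mean of at least 10 CPM, Pearson's r with the large subunit was among the highest for faua (0.993), si:dkey-151g10.6 (0.992), eif3i (0.989) and zgc:63470 (0.989). With the small subunit it was among the highest for faua (0.999), zgc:63470 (0.995), eif3m (0.994) and eif3i (0.990). eif3i and eif3m encode subunits of initiation factor eIF3. With ZnO 2 left out r of these was between 0.850 and 0.989, and all points share library depth and scaling.

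Translation factors gave a mixed picture. Of 79 tested entries, mostly initiation and elongation factors with a few other genes such as the poly(A)-binding protein genes and tpt1, 0 passed by edgeR or limma-voom, and 2 were higher and 6 lower at an unadjusted p under 0.05, against 7.72% and 8.20% of all tested entries. With no filter on low counts edgeR called 1 of 83 entries lower, where it called 283 of all 38853 lower. The median of the 79 was 0.01, of either sign under other scalings, and -0.09 without ZnO 2. Their median deviation from the control mean was 0.10 in ZnO 2, -0.08 in ZnO 1 and -0.06 in ZnO 3. The entry eef2a.1_1, of an elongation factor 2 gene, was at 20.7, 14.6 and 15.7 CPM in the control libraries against 9.81, 10.7 and 9.32 in the ZnO libraries (log2 fold change -0.77 ± 0.16, SE, edgeR adjusted p = 0.0848). All ZnO libraries were below all controls, and it was the 1 entry of the list that DESeq2 called (adjusted p = 0.00389), where it called 2.98% of all tested entries lower. The other tested entry of this symbol, eef2a.1, went the opposite way, by 0.32 on the log2 scale (unadjusted p = 0.0791 in the edgeR test). The sum over the symbol is not given here, so these values do not show whether the gene as a whole was lower. The entries eif4g3b_1 and eif4g3b_2, of an initiation factor scaffold, had log2 fold changes of -0.40 and -0.33 (edgeR adjusted p = 0.213 and 0.247).

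Genes that build ribosomes, rather than form part of them, had lower levels in ZnO at most entries, though none passed the adjusted edgeR test. Of 156 tested entries of the ribosome biogenesis list, 141 had negative log2 fold changes, against 48.0% of all tested entries, with a median of -0.25. By edgeR 0 passed, where 0.331% of all tested entries passed as lower. Unadjusted, 52 had an edgeR p under 0.05 and were lower (33.3%, against 8.20% of all tested entries) and 0 higher. limma-voom called 0, and DESeq2 called 1 lower, nop2, where it called 2.98% of all tested entries lower. Groups did not overlap, with ZnO lower, at 78 of the 156, against 11.2%.

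Single libraries did not turn the direction of the biogenesis list. Its median deviation from the control mean was -0.20, -0.29 and -0.22 in the ZnO libraries and 0.06, 0.01 and -0.06 in the controls. ZnO 2, where ribosomal protein messengers were highest, was the lowest of the 6. Without ZnO 2 the median log2 fold change was -0.23, 141 of 156 were negative (50.9% of all entries), and 38 were lower at an unadjusted p under 0.05 (7.89% of all). Over the 15 alternatives the median ran from -0.29 to -0.22. Leukocyte marker sums were also lower in all ZnO libraries, as given above, and their part in this result was not tested.

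The biogenesis entries of smallest p were nop2, dhx37 and dhx33. nop2, a methyltransferase of large subunit ribosomal RNA, was at 48.1, 45.6 and 44.5 CPM in the control libraries against 36.4, 31.7 and 33.0 in the ZnO libraries (log2 fold change -0.45 ± 0.11, SE, edgeR adjusted p = 0.107, DESeq2 adjusted p = 0.0206). dhx37, a helicase of small subunit assembly, was at 22.2, 24.4 and 22.2 CPM in the control libraries against 17.1, 17.0 and 17.6 in the ZnO libraries (log2 fold change -0.41 ± 0.11, edgeR adjusted p = 0.137). dhx33, a nucleolar helicase, was at 5.78, 5.18 and 5.00 CPM in the control libraries against 3.15, 2.80 and 3.88 in the ZnO libraries (log2 fold change -0.70 ± 0.19, edgeR adjusted p = 0.151). In all 3 genes every ZnO library was below every control, as at 11.2% of all tested entries. These 3 were picked for their small p, which favours groups that do not overlap.

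RNA polymerase I transcribes the ribosomal RNA genes. Of its 18 tested entries 16 were negative, against 48.0% of all tested entries, with a median of -0.26, and -0.23 without ZnO 2. By edgeR, DESeq2 and limma-voom 0 passed, while 2 lower and 1 higher entries had an unadjusted edgeR p under 0.05, against 8.20% and 7.72% of all tested entries. polr1a, the largest subunit of the enzyme, was at 49.6, 46.4 and 42.4 CPM in the control libraries against 36.7, 30.1 and 36.2 in the ZnO libraries, with no overlap (log2 fold change -0.43 ± 0.12, SE, edgeR adjusted p = 0.161). ubtfl, related to the transcription factor UBF, had -0.38 ± 0.14 (adjusted p = 0.239). taf1b, of the promoter selectivity factor, had 0.52 ± 0.21 (adjusted p = 0.283), with overlapping groups.

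**Figure D5:**
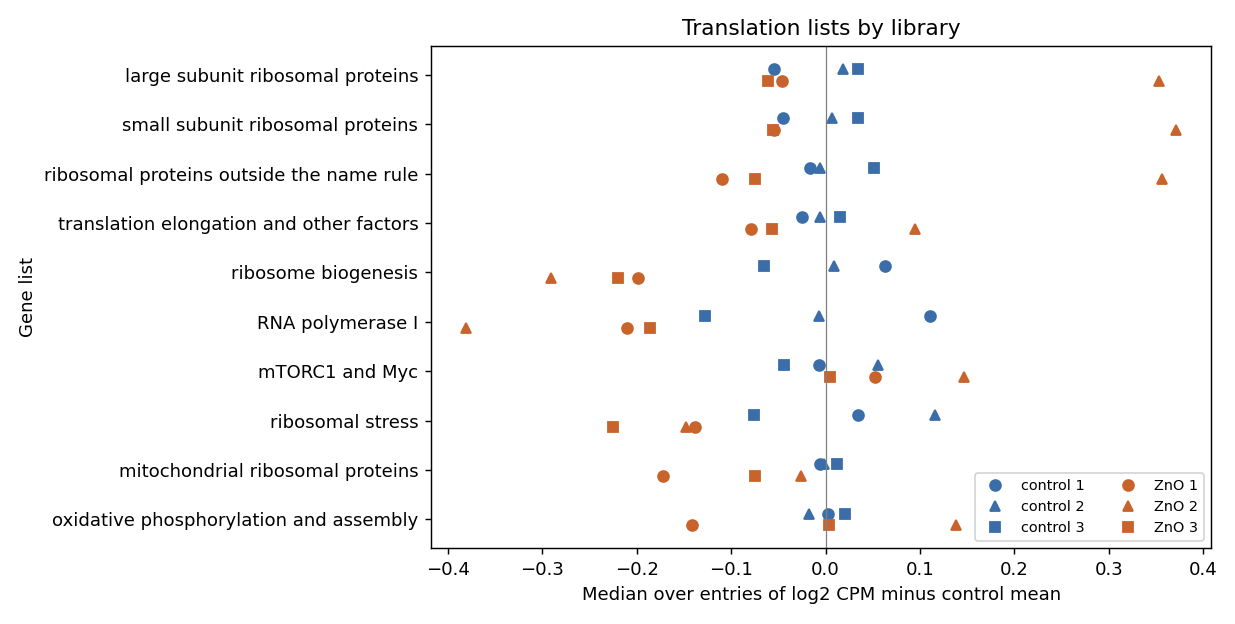
Median over a list's entries of log2 CPM minus the entry's control mean, for each library (blue control, orange ZnO; circles, triangles and squares are replicates 1, 2 and 3). In ZnO 2 (orange triangle) both subunits are at 0.35 and 0.37, and ribosome biogenesis is at -0.29.

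The mTORC1 and Myc list, which holds the regulators of ribosomal protein synthesis, had a median of 0.01 over 57 tested entries, of either sign when 1 library was left out. By edgeR 0 passed (1, higher, without ZnO 1), and 8 were higher and 8 lower at an unadjusted p under 0.05, against 7.72% and 8.20% of all tested entries. limma-voom called 0, and DESeq2 called 4 higher (eef2k, mxd1, sesn3 and mxd4) and 2 lower (ddit4 and max), where it called 1.64% of all tested entries higher and 2.98% lower. eef2k, the kinase that inhibits elongation factor 2, was at 25.3, 31.3 and 26.6 CPM in the control libraries against 40.8, 50.5 and 59.6 in the ZnO libraries (log2 fold change 0.86 ± 0.16, SE, edgeR adjusted p = 0.0662, DESeq2 adjusted p = 4.86e-04). mxd1, a partner of Max, was at 11.0, 12.5 and 10.8 CPM in the control libraries against 20.5, 16.7 and 17.0 in the ZnO libraries (log2 fold change 0.66 ± 0.14, edgeR adjusted p = 0.0834). sesn3, a sestrin, was at 22.6, 24.0 and 21.7 CPM in the control libraries against 31.8, 43.3 and 29.6 in the ZnO libraries (log2 fold change 0.62 ± 0.16, edgeR adjusted p = 0.128). None of these 3, picked for their small p, overlapped between groups, where 11.3% of all tested entries were higher in ZnO without overlap. Chosen after its values were seen, max, the common partner of Myc and Mxd proteins, was at 99.2, 98.8 and 96.9 CPM in the control libraries against 78.2, 76.5 and 74.6 in the ZnO libraries. ddit4, chosen likewise, was at 20.1, 31.9 and 18.2 CPM in the control libraries against 15.9, 9.12 and 12.0 in the ZnO libraries. Its log2 fold change was -0.92 ± 0.27 (SE, edgeR adjusted p = 0.169, DESeq2 adjusted p = 0.0243). Likewise mxi1, mxi1_1 and mntb had -0.46, -0.35 and -0.37 (edgeR adjusted p = 0.212, 0.281 and 0.266). The list mixes genes that promote and genes that oppose mTORC1 or Myc, so its median has no single direction.

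The ribosomal stress list holds mostly genes of the p53 arm, which in mammals responds to free ribosomal proteins, with others such as nol12 and znf622. It had a median of -0.11 over 20 tested entries, 0 of them past edgeR or limma-voom. The median was -0.05 without control 2, -0.24 without ZnO 1, -0.06 without ZnO 3 and -0.16 without control 3. Unadjusted, 5 were lower and 0 higher by edgeR, against 8.20% and 7.72% of all tested entries. DESeq2 called 1 lower, against 2.98% of all. This was gadd45ba, a stress-induced growth arrest gene at 83.4, 97.1 and 58.9 CPM in the control libraries against 53.4, 52.8 and 43.0 in the ZnO libraries (log2 fold change -0.68 ± 0.19, SE, edgeR adjusted p = 0.150). nol12, a nucleolar protein gene, and mdm2_1, of the p53 inhibitor, each had -0.41 (edgeR adjusted p = 0.183 and 0.207).

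Mitochondrial ribosomal proteins, which form a separate ribosome inside the organelle, stood near or below the control mean in ZnO 2. Their median deviation from the control mean was -0.17, -0.03 and -0.07 in ZnO 1, 2 and 3. Of 97 tested entries 70 had negative log2 fold changes, against 48.0% of all tested entries, and the median was -0.09, or -0.13 without ZnO 2. In this list 0 passed by edgeR, DESeq2 or limma-voom. At an unadjusted edgeR p under 0.05, 3 were lower and 0 higher, fewer than the 8.20% and 7.72% of all tested entries. Those 3 were mrpl57, mrpl46 and mrpl44, with log2 fold changes of -0.30, -0.35 and -0.29. Genes of the oxidative phosphorylation complexes, with some of their assembly factors, had a median of 0.0038, of either sign under other scalings, over 102 tested entries and deviations of -0.14, 0.14 and 0.00 in the ZnO libraries. Without ZnO 2 the median was -0.08, with 72 of 102 negative (50.9% of all entries) and 7 lower at an unadjusted edgeR p under 0.05 (7.89% of all). With all libraries 0 passed by edgeR or limma-voom. Without the filter on low counts edgeR called 1 of 105 higher, where it called 122 of all 38853 higher. By unadjusted edgeR p, the higher entries numbered 2, against 7.72% of all tested entries, and the lower ones 0, against 8.20%. DESeq2 called 1 higher, against 1.64% of all tested entries. This was cox4i1l, which was at 0.164, 0.0704 and 0.126 CPM in the control libraries against 1.01, 1.72 and 0.702 in the ZnO libraries. It rested on 5, 2 and 4 counts in controls and 29, 45 and 21 in ZnO. It thus passed the filter on low counts only through the group where it was high, and its edgeR adjusted p was 0.0598. cox4i2 and ndufb9_1 had log2 fold changes of 0.73 and 0.27 (edgeR adjusted p = 0.177 and 0.320).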

How the data were processed

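The authors deposited raw counts per gene entry for 6 libraries of poly(A) RNA with an RNA integrity number above 7.0. The tools named, per the submitters' processing notes, are BWA, HTSeq, cutadapt and DESeq2, with the build GRCz11. Versions, annotation, strand setting and how multiply matching reads were treated were not given in the sources used here. Near-identical copies are therefore less certain. All columns were mapped to samples by library name, and 0 were left over.

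Entries were filtered with filterByExpr (minimum count 10), given TMM factors (0.981 to 1.02) and compared between groups in edgeR (robust quasi-likelihood, no covariate), with Benjamini-Hochberg adjustment over 25962 entries and a threshold of 0.05. SE is the log2 fold change divided by the root of its F statistic. Log2 CPM used a prior count of 2. Levels are TMM-scaled CPM. DESeq2 and limma-voom were run on the same entries. Scripts were tested on simulated data. The members, lists, tests and alternatives were chosen with earlier results of these data known. Named are the 6 entries with most CPM per subunit, the 3 with the most positive and the 3 with the most negative fold change at a mean of at least 1 CPM, the 3 of smallest p, and genes fixed by name, 52 in all. The other lists add the 3 entries of smallest p each. Of 85 symbols, 84 were found by symbol in a RefSeq gene table (assembly GRCz12tu), which served only to look up names. Some entries that these rules name are not reported here. No sequences are printed. Fits ran in R 4.3.3 with DESeq2 1.42.0, edgeR 4.0.16 and limma 3.58.1. Figures were drawn with matplotlib 3.10.9 in Python 3.11.15, using numpy 2.4.6 and pandas 2.3.3.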

Additional observations from a re-analysis of the deposited data

How the results depend on the processing

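The count of ribosomal protein entries past the threshold was 0 in both subunits in all 15 alternatives. The positive medians turned only without ZnO 2: leaving out 1 library at a time, the large subunit median ran from -0.062 to 0.16 and the small from -0.073 to 0.17. Without ZnO 2, 39 of the 52 named entries changed sign, with none called, and in the other alternatives 0 to 3 did. The count of all tested entries past the threshold, 111, was 1199 with DESeq2, 55 with limma-voom, 405 with no filter on low counts and 12 to 369 with 1 library left out (34, 33 and 25 without control 1, 2 or 3, and 369, 28 and 12 without ZnO 1, 2 or 3). The cause was not tested. Without the 20 other entries of highest mean share in the denominator, ribosomal proteins held 7.46% of control and 8.12% of ZnO counts. The alternatives for the other translation lists were added after seeing the data.

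The labels number the replicates of both groups, and a replicate block gave 32 calls over all entries and 0 ribosomal protein entries. Same-numbered libraries deviated from their group means with correlations of 0.01, -0.05 and 0.08. Pairs with unlike numbers ran from -0.18 to 0.16, and not every library correlated best with its own number. With 3 libraries the deviations within a group are tied together, so these values cannot tell whether same-numbered libraries shared a batch. With 3 libraries per group the spread between libraries limits most members, and depth limits rps8b, with 19 to 55 counts per library.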

Other observations

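Among the 18 symbols with several entries, the split also stood apart between groups, with no overlap, for the entries of rpl30 and rps15 and for rpl12_1. The entry rpl30 held 14.1%, 14.5% and 15.1% of the symbol's counts in controls and 13.4%, 13.7% and 12.7% in ZnO. The entry rps15_1 held 15.3% ± 0.438 in controls and 16.6% ± 0.336 in ZnO (SD, n = 3), and rpl12_1 held 39.8% ± 0.327 and 40.6% ± 0.154. Exact binomial intervals of the entry rpl30 in control 1 (13.6% to 14.7%) and ZnO 2 (13.2% to 14.3%) overlapped. So did those of rps15_1 in control 3 (15.1% to 16.1%) and ZnO 2 (15.7% to 16.7%). The same held for rpl12_1 in control 1 (39.4% to 40.7%) and ZnO 3 (39.7% to 41.0%). None of these splits was tested between groups. How often splits of other symbols in the table stood apart was not counted. For rpl10, the entry rpl10_2 ranged within the ZnO group from 55.2% in ZnO 1 to 61.5% in ZnO 3.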
